A study of Mus musculus with 6 samples.

Results

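Expression of 10 genes of mural cells, the cells that wrap blood vessels, was examined in neonatal sciatic nerve with and without a Dok6 mutation. The genes were taken by name from the 54532 genes of the count table. They form a contractile group (Acta2, Tagln, Myh11, Cnn1 and Myl9) and a pericyte group (Rgs5, Pdgfrb, Notch3, Abcc9 and Cspg4), with 5 genes in each. They were picked by name as known mural genes, with earlier results of these data known, and no measured threshold was used.

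RNA-seq was performed on sciatic nerves at postnatal day 3, with 3 control and 3 Dok6 mutant libraries. Controls were WT littermates, and mutants were Dok6 KO. The mutant line came from mice whose Dok6 exon 3 is flanked by loxP sites (Dok6 fl/fl), crossed with EIIA-cre mice, in which Cre acts in the early fertilized egg, so the deletion was not limited to one cell type. The study describes the libraries of a genotype as biological replicates from separate mice, so p-values measure the spread between these mice, and no label assigns libraries to litters.

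Mural cells share a basement membrane with the endothelial tube. Pericytes sit on capillaries and small venules, while smooth muscle cells ring arterioles and arteries and carry an actin and myosin apparatus that sets the vessel diameter. Endothelial cells release PDGF-B, which recruits and keeps pericytes through the receptor encoded by Pdgfrb, and they signal through Notch ligands to Notch3 on mural cells. Contractile genes are classic targets of SRF, a transcription factor that binds the CArG box, together with its coactivator myocardin. In peripheral nerve, pericytes belong to the endoneurial vessels that form the blood-nerve barrier.

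The 6 libraries held from 17699904 to 18678170 counts, so that 3 counts, taken as the smallest detectable level, were worth 0.156 to 0.172 CPM, a library's counts scaled to a common depth with TMM (trimmed mean of M-values). This limit covers counting error only. Dok6 stood at 17.8, 11.9 and 17.5 CPM in controls 1, 2 and 3, and at 7.26, 5.78 and 7.15 CPM in mutants 1, 2 and 3. All mutants were below all controls, with a log2 fold change of -1.23 (SE 0.20) and an adjusted p of 0.0118 in the quasi-likelihood test of edgeR, adjusted by Benjamini-Hochberg over all genes tested as are all adjusted p-values below unless another tool is named. The gene-level count does not separate exon 3 from the other exons. The tissue label was checked against defining markers. Of 15 Schwann cell markers, 12 reached at least 1 CPM in every library. Their summed level was 551.1, 371.3 and 2012 CPM in controls 1, 2 and 3. In mutants 1, 2 and 3 it was 1727, 7214 and 720.4 CPM. At the same time, 13 of 14 central nervous system markers reached at least 1 CPM in every library. Their summed level was 2297 to 3208 CPM in controls and 2040 to 3869 CPM in mutants. The central nervous system sum was above the Schwann cell sum in every library except mutant 2. The part of tissue composition in the results below was not tested. In bulk tissue, fewer cells of a type and less RNA per cell cannot be told apart.

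All 10 genes passed the filter on low counts and were among the 17099 genes tested. A gene passed the test with an adjusted p under 0.05. Of the 5 contractile genes, Myl9 passed as higher in mutants. Of the 5 pericyte genes, Notch3 passed as higher. None of the 10 passed as lower, none of them had a lower value in mutants at an unadjusted p under 0.05, and none passed as lower with DESeq2. Over all genes tested, 8.62% passed as higher and 6.01% as lower. The median log2 fold change was 2.64 for the contractile genes and 0.55 for the pericyte genes, against 0.01 for all genes tested. The contractile differences, Tagln apart, were large and highest in mutant 1, whereas the pericyte differences were small and all positive, with mutant 2 close to the control mean for Rgs5 and Abcc9.

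**Figure D1:**
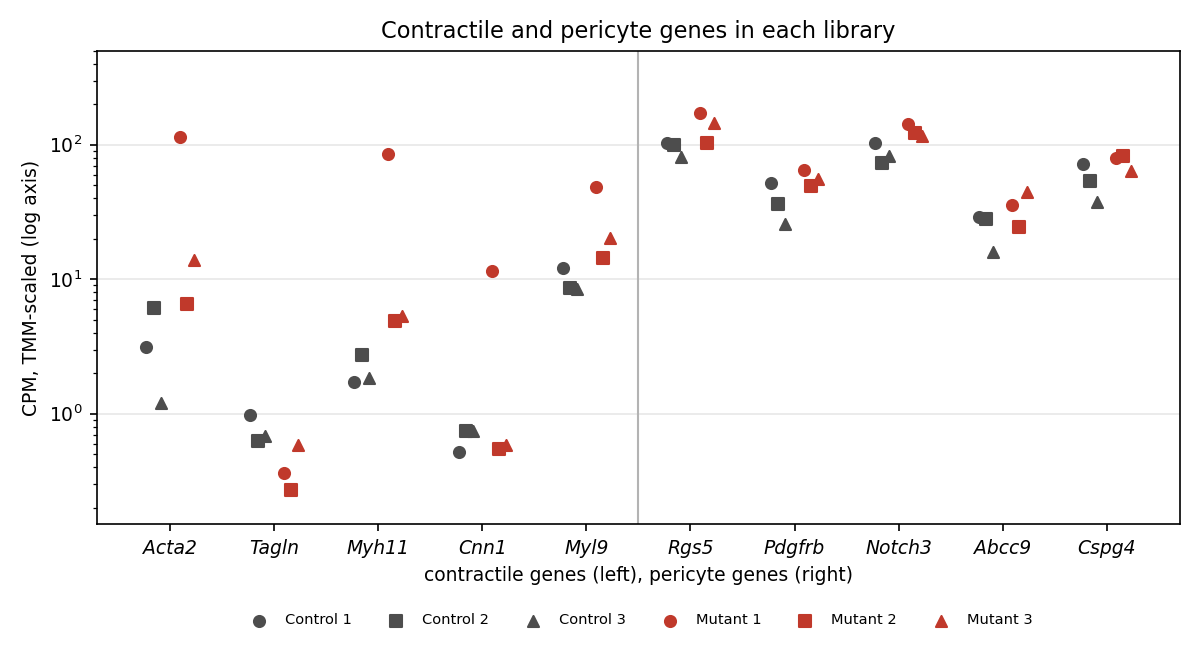
CPM of the 10 genes (log axis) in each of the 6 libraries, with contractile genes on the left, pericyte genes on the right, controls in grey and mutants in red. Mutant 1 stands apart for Acta2 (114 CPM), Myh11 (85.7 CPM) and Cnn1 (11.5 CPM), while for each pericyte gene the libraries lie closer together.

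Promoter sequences were read for the motifs of the regulators named above. RefSeq windows on GRCm38.p6, from 250 bases before to 50 bases after the start, were given for 7 of the 10 genes, and Tagln, Myh11 and 1 pericyte gene had no entry. The CArG box and TGGGAA, the core of the site of the Notch cofactor RBPJ, were searched on both strands with exact letters. A CArG box was present in 1.63% of all 32851 windows and TGGGAA in 25.6% of them. Among the 7 genes, Myl9 held an exact CArG box and Acta2 and Abcc9 held TGGGAA. With 1 letter of the CArG box changed, Acta2 held 2 near-matches, Cspg4 held 2 and Myl9 held 1, and 19.9% of all windows held at least 1. In Acta2, 1 of the near-matches overlaps the TGGGAA shown here. They are shown because they are the matches found in these genes, with the motif in capitals, on the strand of the gene and 5′ to 3′. The Myl9 motif began 161 bases upstream of the start (chr2:156775293-156775322, plus strand), the Acta2 motif 27 bases upstream (chr19:34255383-34255412, minus strand) and the Abcc9 motif 221 bases upstream (chr6:142702478-142702507, minus strand). No exact match overlapped another in these windows. A match describes letters only, and no binding was measured.
Myl9, CArG box: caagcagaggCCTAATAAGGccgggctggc
Acta2, TGGGAA: ttgctccttgttTGGGAAgcgagtgggagg
Abcc9, TGGGAA: ggtggtcctgaaTGGGAAtggccggagtga

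Among the contractile genes, Myl9, which encodes a regulatory light chain of smooth muscle and non-muscle myosin, lies on the plus strand of chromosome 2 from 156775420 to 156781658 (GENCODE M21, GRCm38). Controls 1, 2 and 3 held 12.1, 8.60 and 8.46 CPM, from 211, 150 and 148 counts. Mutants 1, 2 and 3 held 48.5, 14.4 and 20.1 CPM, from 935, 264 and 380 counts. All mutants were above all controls, and mutant 1 was the highest, 3.37 times mutant 2 and 2.41 times mutant 3. The mean rose from 9.72 ± 2.07 to 27.7 ± 18.3 CPM (SD, n = 3 each), a log2 fold change of 1.51 (SE 0.41, adjusted p = 0.0433). Without mutant 1 the log2 fold change was 0.83 (adjusted p = 0.0716), and the adjusted p also missed 0.05 without control 1 (0.0771), control 2 (0.157) or control 3 (0.107). Of all genes tested, 3.58% passed as higher with a log2 fold change above 1, and Myl9 was the member that did so. With a log2 fold change above 2, 1.08% of all genes passed as higher and none of the 10 members.

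Acta2 encodes smooth muscle alpha-actin, the thin filament protein of vascular smooth muscle, and lies on the minus strand of chromosome 19 from 34241090 to 34255590. It stood at 3.16, 6.08 and 1.20 CPM in controls 1, 2 and 3 (55, 106 and 21 counts). In mutants 1, 2 and 3 it stood at 114, 6.55 and 13.9 CPM (2204, 120 and 262 counts). All mutants were above all controls, but mutant 2 exceeded control 2 by less than the controls differed among themselves, and mutant 1 was 17.5 times mutant 2 and 8.24 times mutant 3. The means were 3.48 ± 2.45 CPM in controls and 44.9 ± 60.2 CPM in mutants, a log2 fold change of 3.69 (SE 1.06, adjusted p = 0.0502), so the test was not passed. Without mutant 1 the log2 fold change was 1.55 (adjusted p = 0.132). The test was passed without mutant 2 (adjusted p = 0.0395) or mutant 3 (0.0346), with relative log expression (RLE, 0.0498) or upper-quartile scaling (0.0495) in place of TMM, and with DESeq2 (0.0250). It was not passed when a single control was left out (0.123 to 0.131), nor with limma voom (0.205).

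Myh11 encodes the smooth muscle myosin heavy chain, the most specific of these markers for smooth muscle, and lies on the minus strand of chromosome 16 from 14194535 to 14291372. Controls 1, 2 and 3 held 1.72, 2.75 and 1.83 CPM (30, 48 and 32 counts). In mutants 1, 2 and 3 the level was 85.7, 4.85 and 5.30 CPM (1653, 89 and 100 counts). Mutants 2 and 3 lay close together and above every control, and mutant 1 was 17.7 and 16.2 times as high as they were. The mean was 2.10 ± 0.566 CPM in controls and 32.0 ± 46.6 CPM in mutants, with a log2 fold change of 3.92 (SE 1.13, adjusted p = 0.0502), so the test was not passed. The adjusted p lay just past the threshold, and without mutant 1 it fell to 0.0455, at a smaller log2 fold change of 1.27. Myh11 also passed without mutant 2 (adjusted p = 0.0442) or mutant 3 (0.0257), and did not pass when a single control was left out (0.121 to 0.154). With RLE or upper-quartile scaling it was 0.0497 or 0.0495, and with limma voom 0.259.

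Cnn1 encodes calponin 1, an actin-binding regulator of smooth muscle contraction, and lies on the plus strand of chromosome 9 from 22099216 to 22109630. It had 9, 13 and 13 counts in controls 1, 2 and 3 (0.516, 0.745 and 0.743 CPM). Mutants 1, 2 and 3 had 221, 10 and 11 counts (11.5, 0.545 and 0.583 CPM). Mutants 2 and 3 lay within the range of the controls, and mutant 1 alone was high. The log2 fold change was 2.64 (SE 1.12, adjusted p = 0.138) with all libraries and -0.24 (adjusted p = 0.774) without mutant 1.

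Tagln encodes transgelin, an actin-binding protein of smooth muscle also known as SM22-alpha, and lies on the minus strand of chromosome 9 from 45929619 to 45936058. It had 17, 11 and 12 counts in controls 1, 2 and 3 (0.975, 0.631 and 0.686 CPM). Mutants 1, 2 and 3 had 7, 5 and 11 counts (0.363, 0.273 and 0.583 CPM). All mutants were below all controls, by a log2 fold change of -0.90 (SE 0.44, adjusted p = 0.189), and the test was not passed. Mutant 1, the highest library for the other 4 contractile genes, was not high here. The Tagln count is uncertain, since 67.9% of its exonic bases are also covered by genes on the opposite strand, 62.4% by Gm48529 and 5.4% by Pcsk7, and whether reads were counted by strand was not given in the sources used here. Gm48529 itself had 20 to 31 counts in controls and 15 to 19 in mutants (log2 fold change -0.71, adjusted p = 0.161).

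In 3 of the 5 contractile genes all mutants were above all controls, and in 1 all mutants were below. Over all genes tested, these arrangements held for 19.6% and 18.7%. The summed level of the 5 genes was 18.5, 18.8 and 12.9 CPM in controls 1, 2 and 3, and 260.4, 26.6 and 40.5 CPM in mutants 1, 2 and 3. The sum of mutants 2 and 3 was above that of every control by far less than that of mutant 1.

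**Figure D2:**
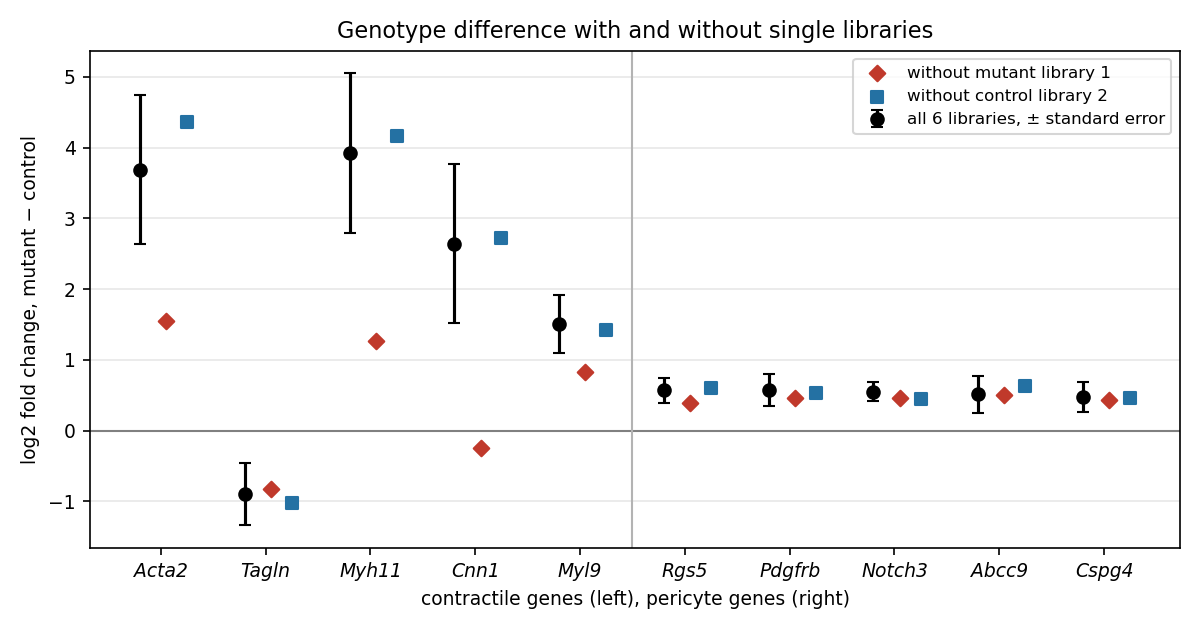
Log2 fold change (mutant minus control) of the 10 genes from edgeR, with all 6 libraries (black, bars are ± SE), without mutant 1 (red) and without control 2 (blue). Leaving out mutant 1 took Acta2 from 3.69 to 1.55, Myh11 from 3.92 to 1.27 and Cnn1 from 2.64 to -0.24, while the pericyte genes lay between 0.40 and 0.63 under these 2 omissions.

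Among the pericyte genes, Notch3, the Notch receptor of mural cells, lies on the minus strand of chromosome 17 from 32120820 to 32166852. Controls 1, 2 and 3 held 104, 73.6 and 81.9 CPM (1809, 1284 and 1433 counts). Mutants 1, 2 and 3 held 142, 122 and 117 CPM (2730, 2229 and 2200 counts). All mutants were above all controls and they lay close together. The mean rose from 86.5 ± 15.6 to 126.6 ± 13.2 CPM (SD, n = 3 each), a log2 fold change of 0.55 (SE 0.13, adjusted p = 0.0313). The direction held without any single library, while the adjusted p missed 0.05 without control 2 (0.125), control 3 (0.0789), mutant 1 (0.0968) or mutant 2 (0.0696). A share of 6.0% of Notch3 exonic bases is also covered by the antisense gene Gm17276, which had 17 to 35 counts.

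Rgs5 encodes a regulator of G-protein signalling that is abundant in pericytes, and lies on the plus strand of chromosome 1 from 169655501 to 169695813. It stood at 104, 98.7 and 80.9 CPM in controls 1, 2 and 3 (1805, 1722 and 1415 counts). In mutants 1, 2 and 3 it stood at 171, 103 and 145 CPM (3303, 1894 and 2737 counts). Mutants 1 and 3 were above every control, and mutant 2 lay within the control range. The log2 fold change was 0.57 (SE 0.18, adjusted p = 0.0606), so the test was not passed, while DESeq2 gave an adjusted p of 0.0108.

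Pdgfrb encodes the receptor for PDGF-B, also present in fibroblasts, and lies on the plus strand of chromosome 18 from 61045150 to 61085061. Controls 1, 2 and 3 held 51.9, 36.3 and 26.0 CPM (904, 634 and 454 counts). The mutants, in the same order, held 64.6, 48.9 and 56.1 CPM (1245, 897 and 1058 counts). Control 1 was above mutant 2, so the groups overlapped, and the log2 fold change of 0.57 (SE 0.23) did not pass (adjusted p = 0.115, and 0.0412 with DESeq2). Without control 1 it was 0.86 (adjusted p = 0.0375), and without control 3 it was 0.36 (adjusted p = 0.208).

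Cspg4 encodes the proteoglycan NG2, which is found on pericytes and also on oligodendrocyte precursors, and lies on the plus strand of chromosome 9 from 56865033 to 56899870. Controls 1, 2 and 3 held 72.3, 53.3 and 37.6 CPM (1260, 930 and 658 counts). The mutants, in the same order, held 80.0, 83.0 and 64.1 CPM (1543, 1522 and 1210 counts). Mutant 3 lay below control 1, and the log2 fold change of 0.48 (SE 0.21, adjusted p = 0.155) did not pass. It was 0.27 (adjusted p = 0.291) without control 3 and 0.74 (adjusted p = 0.0505) without control 1.

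Abcc9 encodes the regulatory subunit SUR2 of the ATP-sensitive potassium channel, and lies on the minus strand of chromosome 6 from 142587862 to 142702315. It stood at 29.0, 28.3 and 16.0 CPM in controls 1, 2 and 3 (505, 493 and 280 counts). In mutants 1, 2 and 3 it stood at 35.6, 24.7 and 44.5 CPM (686, 452 and 839 counts). Mutant 2 was below controls 1 and 2, and the log2 fold change of 0.52 (SE 0.26, adjusted p = 0.205) did not pass. Without control 3, the lowest library, it was 0.29 (adjusted p = 0.410), and without mutant 3 it was 0.30 (adjusted p = 0.452). Of the 5 pericyte genes, Notch3 was the 1 whose mutants were all above the controls, set against 19.6% of all genes tested. The summed level of the 5 genes was 360.5, 290.2 and 242.5 CPM in controls 1, 2 and 3, and 493.1, 381.5 and 426.2 CPM in mutants 1, 2 and 3. All mutants were above all controls in this sum, with no library standing apart.

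Levels of different genes were compared per kilobase of the gene length in the table. In controls, Rgs5 was the highest of the 10 genes with 20.8 ± 2.62 CPM per kilobase (SD, n = 3), followed by Notch3 with 10.7 ± 1.94. Next came Myl9 with 8.37 ± 1.78, Pdgfrb with 6.95 ± 2.38, Cspg4 with 4.56 ± 1.46, Abcc9 with 2.92 ± 0.870 and Acta2 with 1.95 ± 1.38 CPM per kilobase. Tagln with 0.384 ± 0.0931, Myh11 with 0.277 ± 0.0745 and Cnn1 with 0.244 ± 0.0481 CPM per kilobase were the lowest. In this order, the mean ± SD ranges of neighbours overlapped except between Rgs5 and Notch3 and between Acta2 and Tagln. The pericyte genes thus made up the higher end of the order in control nerve, with Myl9 among them, and the other contractile genes the lower end.

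The contractile level was also set against the pericyte level within each library, as a description with no test. The summed contractile level was 5.13%, 6.48% and 5.33% of the summed pericyte level in controls 1, 2 and 3. It was 52.8%, 6.98% and 9.50% in mutants 1, 2 and 3. Mutants 2 and 3 were just above the controls, and mutant 1 was far above. The mean contractile minus mean pericyte level, on the log2(CPM + 0.5) scale, was -4.58, -4.11 and -4.21 in controls and -1.97, -4.29 and -4.08 in mutants. The mean difference between genotypes was 0.85 with all libraries and 0.11 without mutant 1, and on this scale mutant 2 lay within the control range and mutant 3 just above it.

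How far mutant 1 stood apart was also counted over all genes, by a criterion chosen after these values were seen. In 8 of the 17099 genes tested (0.0468%), mutant 1 was at least 5 times every other library. Genes removed by the filter on low counts, which can remove a gene high in mutant 1 alone, were not counted. Of these 8, 3 were contractile members (Acta2, Myh11 and Cnn1). The others were Actg2 (smooth muscle gamma-actin), Myocd (myocardin), Col6a6 (a chain of collagen VI), Krt18 (a keratin of simple epithelia) and Upk3a (an uroplakin of the bladder lining). Actg2 stood at 0.344, 0.573 and 0.114 CPM in controls 1, 2 and 3 and at 20.4, 0.600 and 1.43 CPM in mutants 1, 2 and 3 (log2 fold change 4.42, adjusted p = 0.0591). Myocd stood at 0.287, 0.573 and 0.515 CPM in controls and at 3.99, 0.327 and 0.636 CPM in mutants (log2 fold change 1.84, adjusted p = 0.181), so its mutants 2 and 3 were near the controls as those of Cnn1 were. Krt18 stood at 9.91 CPM and Upk3a at 5.76 CPM in mutant 1, against at most 0.848 and 1.09 CPM in any other library. Gata6, a gene of the regulator list below, was removed by the filter. It had 4, 3 and 1 counts in controls 1, 2 and 3 and 80, 2 and 6 counts in mutants 1, 2 and 3. For comparison, mutant 1 was the highest mutant in 29.7% of all genes tested, and in 4 of the 5 contractile and 3 of the 5 pericyte genes.

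Further smooth muscle contractile and cytoskeletal genes were read from a list of 23 genes, of which 22 were tested. In this list 12 genes passed as higher and none as lower (1 was lower at an unadjusted p under 0.05, and 1 passed as lower with DESeq2), with a median log2 fold change of 1.06. All mutants were above all controls in 16 of the 22, and mutant 1 was the highest mutant in 16. Among all genes tested, 8.62% passed as higher and 6.01% as lower. All mutants were above all controls in 19.6% of them, and mutant 1 was the highest mutant in 29.7%. These shares also stand beside the counts of the lists below. Without mutant 1, 7 genes of the smooth muscle list passed as higher, and without control 2 none did. The omission of control 2 also took the number of all genes passing as higher from 1474 to 56. The 3 with the smallest p were Casq2 (calsequestrin 2, a calcium store protein of cardiac and slow muscle), Cnn2 (calponin 2, found in many cell types) and Des (desmin, found in all muscle).

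Casq2 stood at 0.459, 0.344 and 0.686 CPM in controls 1, 2 and 3 and at 8.66, 6.16 and 2.86 CPM in mutants 1, 2 and 3, a log2 fold change of 3.55 (SE 0.48, adjusted p = 0.0075). Its controls held 8, 6 and 12 counts, so it passed the filter on low counts through the mutants, and with at least 10 counts asked of every library 8 genes of the list passed as higher. Des stood at 1.61, 1.83 and 0.801 CPM in controls and at 34.5, 24.0 and 7.37 CPM in mutants, a log2 fold change of 3.95 (SE 0.57, adjusted p = 0.00929). In both genes the order of the mutants was 1, 2, 3, and mutant 2 was within 1.5 times of mutant 1, unlike in Acta2, Myh11 and Cnn1. Cnn2 stood at 7.52, 5.90 and 3.72 CPM in controls and at 33.0, 16.5 and 26.0 CPM in mutants, a log2 fold change of 2.14 (SE 0.31, adjusted p = 0.00929). The most abundant genes of the list had smaller log2 fold changes than Casq2, Des and Cnn2. Flna, encoding the actin cross-linker filamin A, passed with a log2 fold change of 0.75 (adjusted p = 0.0197), while Tpm1 (0.20, adjusted p = 0.115) and Myl6 (0.12, adjusted p = 0.328), a tropomyosin and a myosin light chain used in many cells, did not. Of the 22 genes, 8 had the mutant order 1, 3, 2 of the 4 contractile members other than Tagln, and 8 had the order 1, 2, 3.

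**Figure D3:**
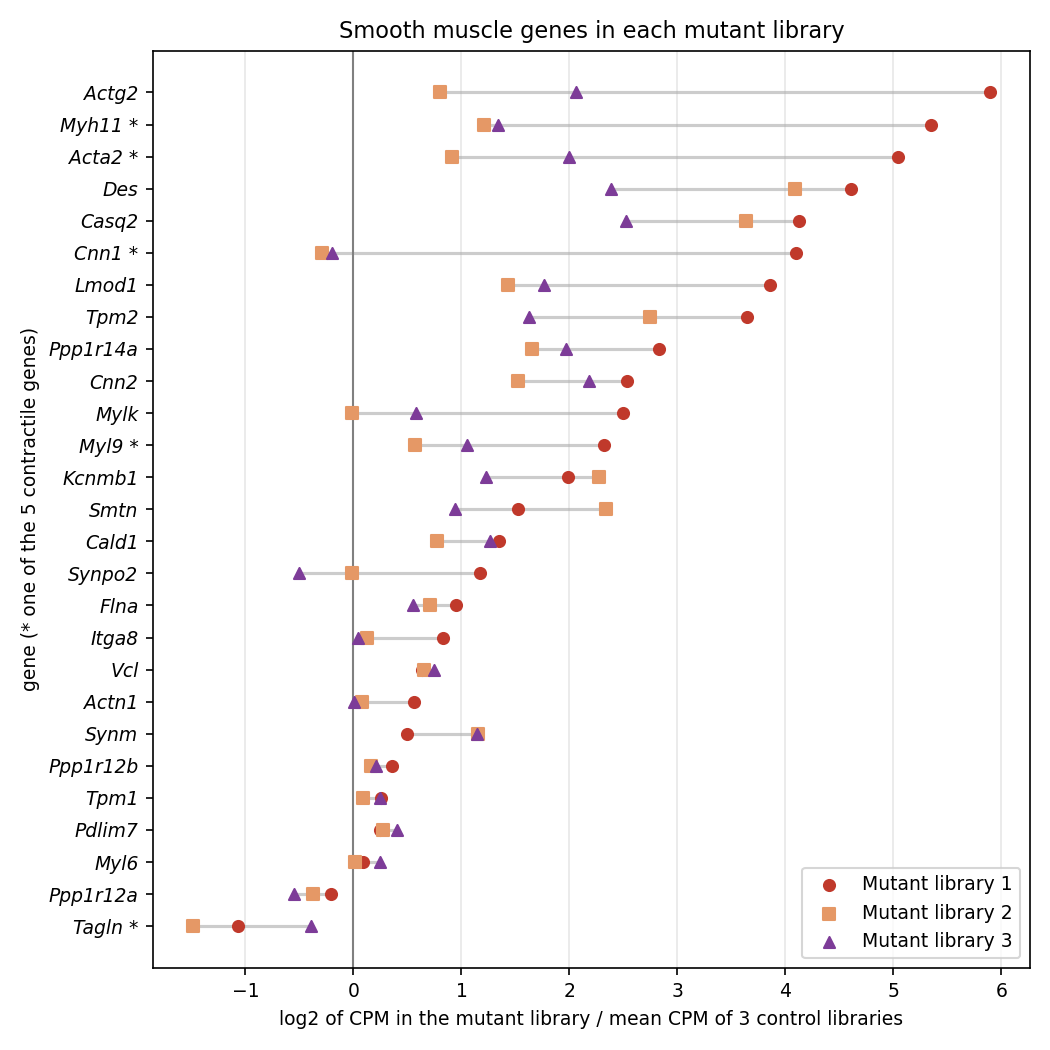
Log2 ratio of CPM in each mutant library to the mean of the 3 controls (x axis) for the 5 contractile genes (asterisks) and the 22 further smooth muscle genes tested, sorted by the ratio in mutant 1. For Myh11, Acta2, Cnn1 and Actg2 mutant 1 lies far right of mutants 2 and 3, whereas for Des and Casq2 mutant 2 lies next to mutant 1.

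A list of 14 regulators of contractile genes around myocardin and SRF gave 12 genes tested, of which 3 passed as higher and none as lower (none at an unadjusted p under 0.05 or with DESeq2), with a median log2 fold change of 0.44. Tbx2, a T-box repressor, passed with a log2 fold change of 1.61 (adjusted p = 0.0125). Srf itself stood at 26.0, 20.6 and 24.9 CPM in controls 1, 2 and 3 and at 36.4, 31.8 and 44.8 CPM in mutants 1, 2 and 3 (0.66, SE 0.15, adjusted p = 0.0253). Its coactivator gene Mkl1 rose by a log2 fold change of 0.53 (adjusted p = 0.0297), and Mkl2 (0.24, adjusted p = 0.241) and Csrp1, a LIM protein of smooth muscle (0.32, adjusted p = 0.211), did not pass. In Srf and Mkl1 all mutants were above all controls. Mutant 3 was the highest for Srf, while mutants 1 and 3 were nearly level for Mkl1 (53.1 and 53.9 CPM). Without mutant 1, 1 gene of the list passed, and without control 2 none did.

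Of 26 further pericyte genes listed, 24 were in the table and tested. Of these, 5 passed as higher and none as lower (1 was lower at an unadjusted p under 0.05, and 1 passed as lower with DESeq2), and the median log2 fold change was 0.46. Steap4, a metalloreductase, rose from 9, 3 and 3 counts in controls 1, 2 and 3 to 34, 81 and 35 counts in mutants 1, 2 and 3 (log2 fold change 3.19, SE 0.58, adjusted p = 0.0151). With under 10 counts in every control it passed the filter through the mutants. With at least 10 counts asked of every library 3 genes of the list passed, and with limma voom 2. Mcam, an adhesion molecule of vessels and Schwann cells, rose from 36.8, 29.5 and 32.1 CPM to 48.5, 83.2 and 63.2 CPM (0.98, SE 0.19, adjusted p = 0.0169). In these genes mutant 2 was the highest. Aoc3, an amine oxidase of smooth muscle, endothelium and fat cells, rose from 1.26, 1.32 and 0.172 CPM to 10.7, 3.22 and 4.13 CPM (2.71, SE 0.65, adjusted p = 0.0301), with mutant 1 the highest.

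The other genes of this pericyte list that passed were Kcnj8 (0.81, adjusted p = 0.0410) and Rgs4, a relative of Rgs5 that neurons also use (0.62, adjusted p = 0.0424). Zic1 and Ednrb, both abundant in the list, did not pass (log2 fold changes of -0.45, adjusted p = 0.0779, and 0.09, adjusted p = 0.780). Without mutant 1, 3 genes of the list passed as higher, and without control 2 none did. Leaving out control 3 left 2 and leaving out control 1 left 3.

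Genes that act with Pdgfrb, Notch3 and Abcc9 were read from lists of their own. Of 5 PDGF ligands and receptors other than Pdgfrb, Pdgfb, the ligand made by endothelium, passed as higher. It stood at 31.2, 25.4 and 26.8 CPM in controls 1, 2 and 3 and at 36.5, 36.9 and 36.0 CPM in mutants 1, 2 and 3, with a log2 fold change of 0.39 (SE 0.10, adjusted p = 0.0391). The mutants were nearly equal and all above the controls. Pdgfra, the receptor of fibroblasts and oligodendrocyte precursors, and Pdgfa differed by log2 fold changes of 0.24 (adjusted p = 0.300) and 0.11 (adjusted p = 0.586). Pdgfb did not pass without control 2, control 3, mutant 1 or mutant 2.

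Of 14 Notch ligands, receptors and targets other than Notch3, none passed in edgeR. At an unadjusted p under 0.05 there was 1 higher and 1 lower, and 1 passed as higher with DESeq2. The median log2 fold change was 0.06, with 8 positive and 6 negative, and 1 passed as higher without mutant 3. The most abundant were Notch1 (0.23, adjusted p = 0.249), Jag2 (-0.17, adjusted p = 0.241) and Notch2 (-0.04, adjusted p = 0.933). For the potassium channel, Kcnj8, the pore subunit that pairs with Abcc9 in mural cells, stood at 6.60, 5.85 and 5.55 CPM in controls 1, 2 and 3 and at 13.1, 7.58 and 10.9 CPM in mutants 1, 2 and 3. All mutants were above all controls (log2 fold change 0.81, SE 0.22, adjusted p = 0.0410), but of the 6 omissions of a single library, the test was passed in the 1 that left out mutant 2. The subunits Kcnj11 (0.14, adjusted p = 0.450) and Abcc8 (-0.02, adjusted p = 0.937), used in neurons and endocrine cells, did not pass.

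The genes most alike to Myh11 and to Rgs5 were found by the root mean square difference, over the 6 libraries, of log2(CPM + 0.5) minus its control mean, among the 12320 genes with a mean of at least 5 CPM. For Myh11 they were Acta2 (0.58), Col6a6 (0.88), Tpm2 (0.93), Mgp (1.00) and Ttn (1.03). For Rgs5 they were Fbln1 (0.05), Trib1 (0.07), Zfp790 (0.11), Btg2 (0.12) and D430042O09Rik (0.13). The distances for Rgs5, whose own pattern is shallow, were smaller than those for Myh11. Myh11 and Col6a6 reached this minimum through their level in mutant 1, and Cnn1 and Tagln, with means of 2.43 and 0.585 CPM, did not reach it and were not compared.

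Markers of other cell types were read in the same fit, in which 8.62% of all genes tested passed as higher and 6.01% as lower. Of 15 endothelial markers, 4 passed as higher and none as lower (none at an unadjusted p under 0.05 or with DESeq2), with a median log2 fold change of 0.64, and the summed level was 250.1 to 453.5 CPM in controls and 430.0 to 621.2 CPM in mutants. Kdr, the VEGF receptor of endothelium, rose by 0.92 (adjusted p = 0.0206), and Cldn5, a tight junction gene, differed by 0.35 (adjusted p = 0.179). All 15 were detected at 1 CPM or more in every library. The endothelial sum, like the pericyte sum, was lowest in control 3. The number passing was 2 without mutant 1, 1 without control 3, 0 without control 2 and 7 without control 1. The part of endothelial content in the pericyte gene results was not tested.

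Of 20 skeletal muscle markers, 13 were tested, 10 passed as higher and none as lower (none at an unadjusted p under 0.05 or with DESeq2), and Tnnc2 had no count in any library. Their summed level was 33.3, 33.3 and 23.3 CPM in controls 1, 2 and 3, and 733.8, 388.5 and 136.6 CPM in mutants 1, 2 and 3. Acta1, the skeletal muscle actin, stood at 7.49 to 13.4 CPM in controls and at 260.8, 158 and 59.1 CPM in mutants 1, 2 and 3, and Myh8, the perinatal myosin, at 1.55 to 4.07 CPM in controls and at 196, 72.0 and 13.99 CPM in mutants. Mutant 1 was the highest mutant in 10 of the 13 tested and mutant 2 in 3, and 9 had the order 1, 2, 3. Of the 13, 9 had under 10 counts in at least 1 control and passed the filter mainly through the mutants. With at least 10 counts asked of every library 2 passed, with limma voom 5, and without control 2, 2. The part of skeletal muscle in the smooth muscle gene results was not tested.

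Fibroblast markers passed as higher in 6 of 12 (none as lower, none lower at an unadjusted p under 0.05 or with DESeq2), and their sum was 349 to 1196 CPM in controls and 2013 to 3129 CPM in mutants. Col1a2, a chain of collagen I, rose by a log2 fold change of 1.96 (adjusted p = 0.0360), and Col1a1 differed by 2.65 (adjusted p = 0.0537). The number passing was 2 without mutant 1, 0 without control 2 and 4 without control 3. Red blood cell genes went the other way, with 4 of 5 tested lower and none higher (none at an unadjusted p under 0.05 or with DESeq2). Their sum was 431 to 746 CPM in controls and 75.4, 209.9 and 289.6 CPM in mutants 1, 2 and 3, so mutant 1, the highest library for contractile genes, was the lowest here. None passed as lower without control 1 or without control 2, and 1 did without mutant 2. The part of these cells and of blood content in the mural results was not tested.

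Neural and other markers also differed between the genotypes. Of 12 sensory neuron markers, 10 passed as higher, with a median log2 fold change of 3.76 and a sum of 229 to 272 CPM in controls against 428, 1084 and 1018 CPM in mutants 1, 2 and 3, so that mutant 1, the highest for contractile genes, was the lowest mutant. Without control 2, 5 of them passed. Of 15 Schwann cell markers, 7 passed as higher, with a median of 1.34 and with mutant 1 the highest mutant in 0 of 15. The number was 2 without control 1, 0 without control 2, 1 without control 3, 4 without mutant 2 and 1 with limma voom. Of 14 central nervous system markers, 1 passed as higher and 2 as lower (median 0.34). None passed as lower without control 3 or mutant 2, and none in either direction without control 2. The higher count was 2 without control 3 or mutant 3, and the lower count was 1 without control 1 or mutant 1. Perineurial markers passed as higher in 2 of 7 and meningeal markers in 1 of 7, and of 10 macrophage markers none passed in edgeR (3 were higher at an unadjusted p under 0.05, and 2 passed with DESeq2). The perineurial count was 0 without control 2 or mutant 2 and 1 without control 3 or mutant 1, and the meningeal count was 0 without control 2, control 3 or mutant 2. None of the perineurial, Schwann cell, sensory neuron, macrophage and meningeal markers passed as lower in edgeR or DESeq2. The part of these cell types in the mural gene results was not tested.

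**Figure D4:**
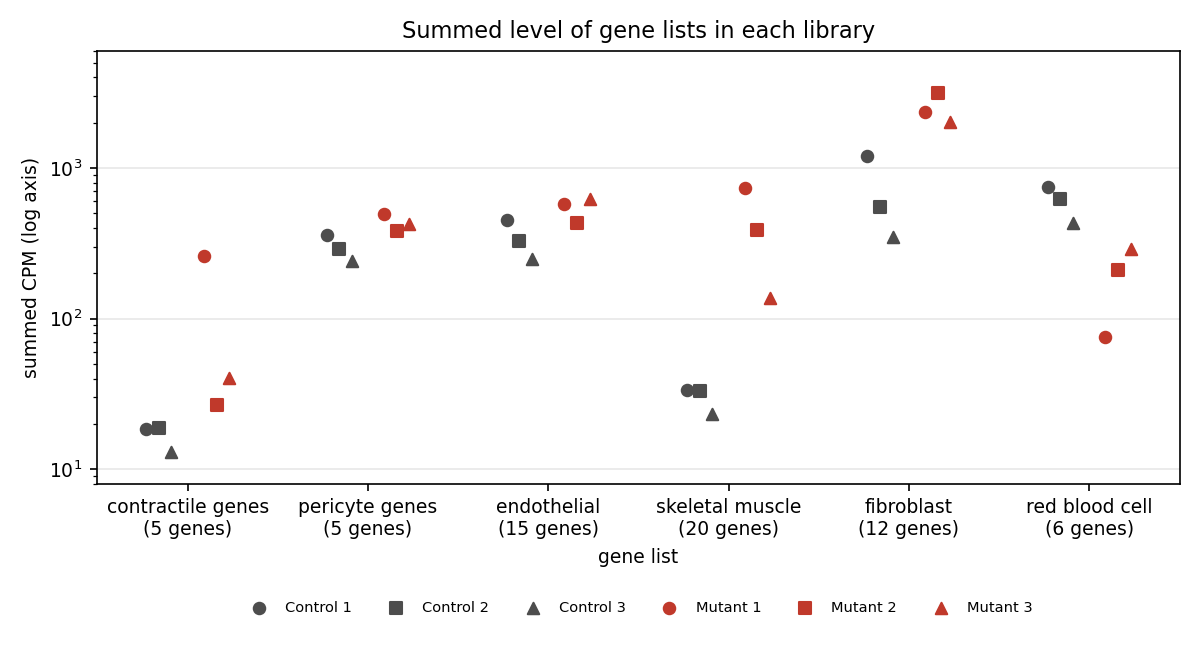
Summed CPM (log axis) of the contractile genes, the pericyte genes and 4 marker lists in each library, with controls in grey and mutants in red. The contractile sum is 260.4 CPM in mutant 1 and at most 40.5 CPM elsewhere, the pericyte sum spans 242.5 to 493.1 CPM, and the red blood cell sum is lowest in mutant 1.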

How the data were processed

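RNA-seq of P3 sciatic nerve was analysed for 3 control and 3 Dok6 mutant libraries, grouped by the labels. The deposited values are counts, whole numbers of reads per gene as the authors made them, not normalized, with a gene length for each gene. The submitters' processing notes name the build mm10. The aligner, the counter, the annotation and the use of strand are not given in the sources used here, and the library kit is named as directional in the methods but not in the labels. The table held no columns of comparisons, and 0 columns of values were left unused.

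Counts were fitted in edgeR 4.0.16 (R 4.3.3) with filterByExpr by genotype (minimum count 10), TMM scaling, glmQLFit and glmQLFTest on all 6 libraries without a block, and p-values were adjusted by Benjamini-Hochberg over the 17099 genes tested. The biological coefficient of variation was 16.6%. Standard errors were derived from the F statistic. CPM are TMM-scaled, means are given with SD, and a pseudocount of 0.5 CPM was used for log2 levels. The fit was tested on simulated data for this comparison (17124 genes), where 75 of 100 genes changed by 1 on the log2 scale and 100 of 100 changed by 2.5 were recovered, with 13 false calls. DESeq2 1.42.0, limma voom 3.58.1, other scalings, other filters, a block, omission of each library and fold thresholds were alternatives.

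Members and lists were chosen with earlier results of these data known. Named genes are the 10 members, Dok6, in each pathway list the 3 most abundant genes and the 3 with the smallest p among those that passed, in marker lists the 2 most abundant, and the 5 genes most alike to Myh11 and to Rgs5. The other pericyte and potassium channel genes that passed, the antisense genes, Tnnc2, Gata6 and the genes highest in mutant 1 were named after their values were seen. Annotation was GENCODE M21, in which 54495 of the 54532 gene IDs were found. Transcripts of other genes matching a member at 95% identity over at least 200 bases (blastn 2.17.0) were found for Tagln (Gm48529) and Notch3 (Gm17276). Promoter windows were from RefSeq (GRCm38.p6).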

Additional observations from a re-analysis of the deposited data

How the results depend on the processing

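Of 126 member values under alternatives, 95 kept their direction and side of the threshold, 21 newly passed, 9 no longer passed and 1 reversed, namely Cnn1 without mutant 1 (-0.241, in a range up to 3.161 when a library was left out). The contractile count passing as higher, 1, became 2 with DESeq2, 3 with RLE or upper-quartile scaling, 4 with no filter, 3 with at least 10 counts in every library, 0 with limma voom and 0 at a log2 fold change above 2. The pericyte count, 1, became 3 with DESeq2 or no filter and 0 at a fold threshold of 1 or 2. Leaving out single libraries gave 0 to 3 contractile and 0 to 2 pericyte genes, and over all genes 56 to 1671 higher and 12 to 1233 lower, the lowest of both without control 2. Over all genes, thresholds of 1 and 2 left 612 and 185 higher and 74 and 19 lower. The cause was not tested. The difference between contractile and pericyte level was 0.85 with all libraries and ran from 0.11 to 1.27 when a library was left out, the lowest without mutant 1. Same-numbered libraries did not deviate together (correlations of -0.01, -0.17 and -0.24, against -0.07 to 0.22 for libraries of unlike number). With 3 libraries in a group, these values cannot exclude shared litters. With a replicate block, 432 genes passed as higher and 130 as lower, while the contractile count and the pericyte count stayed at 1. The further smooth muscle genes passing went from 12 to 8 and the further pericyte genes from 5 to 1 with that replicate block. Red blood cell genes passing as lower went from 4 to 0, and central nervous system markers from 2 to 0. Genes passing as higher went from 7 to 2 for Schwann cell and from 2 to 0 for perineurial markers. The meningeal, PDGF and potassium channel lists went from 1 to 0. Smaller changes were seen for skeletal muscle (10 to 9), sensory neuron (10 to 8), fibroblast (6 to 4) and endothelial markers (4 to 3). DESeq2 gave no p for Myh11 and Cnn1, and Tagln and Cnn1 fell under the filter of 10 counts. Alternatives for the lists were chosen after seeing the data. Depth limits Tagln and Cnn1 most, with 5 to 17 counts outside mutant 1.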
